A study of Homo sapiens with 12 samples.

Results

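The transcripts of 8 haematopoietic growth factor receptor genes (FLT3, KIT, CSF1R, CSF3R, CSF2RA, CSF2RB, IL3RA and IL6R) were followed through all 12 libraries of the series. They were chosen by name as receptors that carry survival, growth and maturation signals in myeloid cells, with earlier results of these data known. They are 8 of the 78930 genes read from the deposited counts. RNA had been taken from OCI-AML3, a line established from human acute myeloid leukaemia whose nucleophosmin gene has the mutation that moves the protein to the cytoplasm (NPM1c). In every group the NPM1c of these cells was the degron-tagged form (genotype NPM1c-degron), which the small molecule dTAG-13 directs to degradation. The first group, dTAG FL-NPM1c, carried a lentiviral construct for full-length NPM1c with mCherry, and the second, dTAG C-body null, carried the Cbodynull-mCherry construct, whose sequence the labels do not give. The third group, dTAG mCherry, carried mCherry alone. These 3 groups received dTAG-13, which the protocol gives as 500 nM at 48 hours after transduction, with a sort of mCherry-positive cells 24 hours later. The fourth group, NTC DMSO, has the solvent in its titles, no construct in its genotype label, and a treatment label that reads dTAG. The meaning of NTC is not given. A comparison with NTC DMSO therefore cannot tell the degrader, the transduction and the construct apart. Each group had 3 libraries, and the cell line labels carry running numbers from OCI-AML3 to OCI-AML14. Whether replicates came from separate cultures is not stated; the p-values then reflect no more than the variation among these libraries, which may be technical.

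These receptors are cell-surface proteins that bind secreted factors and start signalling inside the cell. FLT3, KIT and CSF1R are receptor tyrosine kinases of one family, bound by FLT3 ligand, stem cell factor and macrophage colony-stimulating factor (M-CSF). CSF3R binds granulocyte colony-stimulating factor (G-CSF), CSF2RA and IL3RA are the ligand-specific alpha chains for GM-CSF and interleukin 3 that share the beta chain CSF2RB, and IL6R binds interleukin 6 and signals through IL6ST (gp130). The cytokine receptors have no kinase of their own and signal through JAK kinases and STAT factors. FLT3 and KIT are known for progenitors and for activating mutations in acute myeloid leukaemia, CSF1R for monocytes and macrophages, and CSF3R for granulocytes.

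The libraries held 30519165 to 59925564 gene counts. Within each group, pairs of libraries differed by more than sampling noise, most in dTAG mCherry, where the chi-square per degree of freedom was 11.7 to 37.7 against 3.72 to 19.4 in the other groups. Mitochondrial transcripts took 8.41%, 7.32% and 9.63% of the counts in dTAG mCherry libraries 1, 2 and 3, and 6.83% to 7.63% in the other 9 libraries. NPM1 stood at 1651 ± 38.9 on the counts-per-million scale (CPM, by effective library size; SD, n = 3) in dTAG FL-NPM1c, 1922 ± 21.7 in dTAG C-body null, 1252 ± 171 in dTAG mCherry and 1430 ± 117 in NTC DMSO. The degrader acts on protein, so these transcript levels do not measure the loss of NPM1c. All 8 genes of a myeloid identity list were detected in every library, and the T cell genes CD3D, CD3E, CD3G and CD2 had 0 counts throughout. Of 8 stem and progenitor markers, MECOM, HLF, AVP, CRHBP and SPINK2 had 0 counts throughout, PROM1 had at most 0.0668 CPM, CD34 had 0.0496 to 0.302 CPM and GATA2 had 2.69 to 6.24 CPM.

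Receptor transcripts separated into 4 patterns across the groups. CSF1R was about 14-fold higher in dTAG mCherry than in NTC DMSO and stayed high with either add-back construct. It was called lower with FL-NPM1c than with C-body null, but not than with mCherry. CSF3R, CSF2RA and IL6R were higher in dTAG mCherry than in NTC DMSO and, set against mCherry or C-body null, were lower in the FL-NPM1c group. FLT3 was higher in dTAG mCherry than in NTC DMSO and higher again with FL-NPM1c. The adjusted p of this further step passed the threshold in all but 1 of the fits that left out a library. With C-body null the step over dTAG mCherry was of like size (0.33 on the log2 scale) but was not called by edgeR. FLT3 in the add-back groups differed by 0.05. CSF2RB and IL3RA passed the test in none of the 6 comparisons, and KIT had 0 counts in all 12 libraries. Of the 8 members, 7 passed the filter on low counts, and KIT did not.

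Between dTAG mCherry and NTC DMSO, 5 of the 7 tested members were called higher and 0 lower (edgeR quasi-likelihood test, Benjamini-Hochberg adjusted p under 0.05), where 22.6% of all 24064 tested genes were called, 12.9% higher and 9.69% lower. Between dTAG FL-NPM1c and dTAG mCherry, 1 member was higher and 3 were lower, where 15.5% of genes were called, 7.58% higher and 7.95% lower. Between dTAG C-body null and dTAG mCherry 0 members were called by edgeR, where 0.594% of genes were called, 0.216% higher and 0.378% lower. At an unadjusted p under 0.05 that number was 4 of the 7 members, and 11.9% of all genes tested, and DESeq2 called 2 members. Between the 2 add-back groups, FL-NPM1c against C-body null, 4 members were lower and 0 higher, where 9.68% of genes were called, 4.82% higher and 4.86% lower. Against NTC DMSO, 3 members were higher in dTAG FL-NPM1c, where 27.9% of genes were called (14.6% higher, 13.3% lower), and 5 in dTAG C-body null, where 26.6% were called (14.1% higher, 12.4% lower). The comparisons share groups, so their values are not independent of each other.

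**Figure D1:**
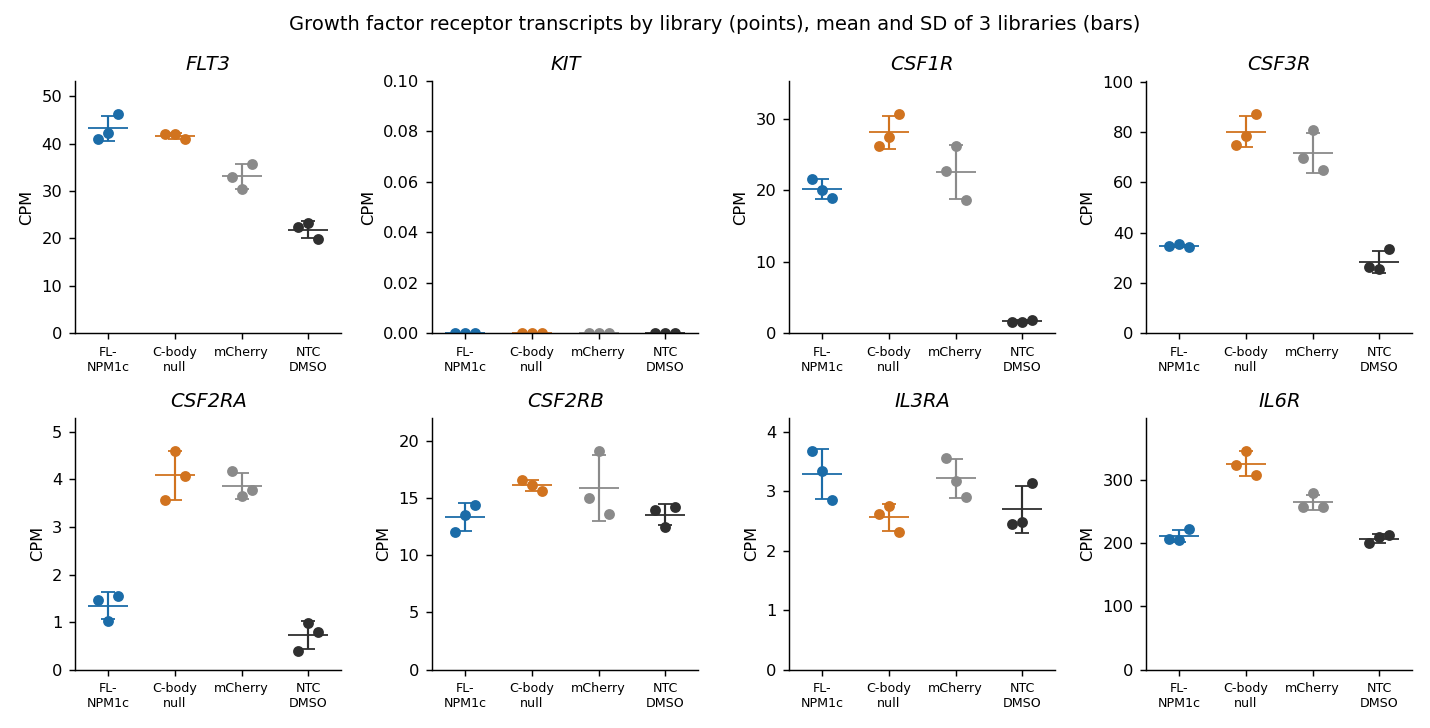
Transcript level of each receptor in CPM (vertical axis, linear from 0) in the 3 libraries of each group (points), with the group mean and SD (bars). CSF1R lies at 1.5002 to 1.85 CPM in NTC DMSO and at 18.6 CPM or more in every library of the other groups, CSF3R and CSF2RA are high with C-body null and mCherry, and KIT is at 0 throughout.

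Start regions are shown for the 4 receptors that were called lower with FL-NPM1c in a comparison. The myeloid transcription factor PU.1, an ETS factor known to bind promoters of CSF1R, CSF3R and CSF2RA, recognises a purine-rich core. CSF1R and CSF3R each have a second start, and the start that held a match is the one shown. FLT3, which also moved and held a match, is not shown. A part of PU.1 in the receptor values was not tested. Each line gives 250 bases before and 50 bases after the start site from RefSeq (GRCh38.p14), 5′ to 3′ on the strand of the gene. Capitals mark GAGGAA or its reverse complement TTCCTC, the letters searched for PU.1. The CSF1R line is the start at chr5:150086505-150086804 on the minus strand, which lies inside the annotated gene and is the type known from macrophages. The others are CSF3R at chr1:36482864-36483163 (minus), CSF2RA at chrX:1268564-1268863 (plus) and IL6R at chr1:154405093-154405392 (plus). The CSF3R window also lies wholly inside the annotated gene.
CSF1R: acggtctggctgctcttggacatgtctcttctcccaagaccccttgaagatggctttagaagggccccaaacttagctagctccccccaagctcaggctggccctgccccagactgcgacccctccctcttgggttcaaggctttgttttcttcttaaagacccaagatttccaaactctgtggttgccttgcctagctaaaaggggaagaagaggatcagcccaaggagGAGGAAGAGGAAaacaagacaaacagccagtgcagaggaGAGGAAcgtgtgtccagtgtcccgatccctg
CSF3R: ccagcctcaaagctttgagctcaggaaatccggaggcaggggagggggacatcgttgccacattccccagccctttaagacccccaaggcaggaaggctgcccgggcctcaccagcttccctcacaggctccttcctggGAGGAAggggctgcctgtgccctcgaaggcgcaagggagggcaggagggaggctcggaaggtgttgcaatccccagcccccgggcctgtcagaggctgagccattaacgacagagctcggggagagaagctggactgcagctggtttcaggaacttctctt
CSF2RA: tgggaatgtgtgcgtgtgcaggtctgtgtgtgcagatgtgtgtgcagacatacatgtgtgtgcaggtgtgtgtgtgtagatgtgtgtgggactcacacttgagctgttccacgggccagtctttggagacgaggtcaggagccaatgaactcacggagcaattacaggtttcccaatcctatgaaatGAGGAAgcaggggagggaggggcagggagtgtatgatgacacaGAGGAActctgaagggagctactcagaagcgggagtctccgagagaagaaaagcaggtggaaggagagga
IL6R: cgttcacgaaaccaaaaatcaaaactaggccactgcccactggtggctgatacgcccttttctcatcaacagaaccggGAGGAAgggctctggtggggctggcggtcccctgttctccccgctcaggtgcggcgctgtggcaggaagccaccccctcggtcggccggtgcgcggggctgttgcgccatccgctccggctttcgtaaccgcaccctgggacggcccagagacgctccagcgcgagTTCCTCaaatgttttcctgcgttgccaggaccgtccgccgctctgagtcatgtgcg

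The CSF1R window held 3 matches, beginning 20 and 14 bases before and at base 20 after the start, of which the first pair stand directly beside each other. CSF3R held 1 match at -111, CSF2RA held 2 at -63 and -20, and IL6R held 2 at -172 and -6. The RefSeq table had 9 start regions for 7 members and none for CSF2RB, and 5 of the 9 held the PU.1 letters, where 27.9% of 35116 start regions of the same length did. FLT3, which was not called lower in any comparison, held 1 match at -87. A second upstream CSF1R start, a second CSF3R start, and the starts of KIT and IL3RA held 0. The letters TGTGGT, searched on both strands for RUNX factors, were in 2 of the 9 regions (13.1% of all), TTNNGNAA for CEBP factors in 6 (36.8% of all) and TGANTCA for AP-1 in 2 (7.71% of all). In the IL6R window a CEBP match at -6 overlaps the PU.1 match there. A match is a run of letters and not a measured binding site, and gene counts cannot separate alternative starts.

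FLT3 (ENSG00000122025, chromosome 13, 28003274 to 28100592, minus strand, GRCh38), the receptor for FLT3 ligand, had 41.1, 42.3 and 46.3 CPM in dTAG FL-NPM1c. It had 41.9, 42.0 and 40.9 CPM in dTAG C-body null, 32.9, 30.5 and 35.7 in dTAG mCherry, and 22.4, 23.3 and 19.8 in NTC DMSO. All libraries with an add-back construct lay above all dTAG mCherry libraries, and those lay above all NTC DMSO libraries. FLT3 rose by 0.60 ± 0.09 (SE) on the log2 scale in dTAG mCherry over NTC DMSO (edgeR adjusted p = 0.00013), which is 1.51-fold. It rose by a further 0.39 ± 0.09 in dTAG FL-NPM1c over dTAG mCherry (edgeR adjusted p = 0.0084), and without dTAG mCherry library 1 that difference was 0.35 (adjusted p = 0.058). In dTAG C-body null over dTAG mCherry the difference was 0.33 ± 0.09 (edgeR adjusted p = 0.14), and DESeq2 called it (0.35, adjusted p = 0.015). FL-NPM1c minus C-body null was 0.05 ± 0.09 (edgeR adjusted p = 0.75), and the libraries of these groups overlapped. Against NTC DMSO, FLT3 was 1.98-fold higher in dTAG FL-NPM1c and 1.90-fold higher in dTAG C-body null (edgeR adjusted p = 8.1e-07 and 7.6e-07).

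KIT (ENSG00000157404, chromosome 4, 54657918 to 54740715, plus strand), the receptor for stem cell factor, had 0 counts in each of the 12 libraries. A count of 0 allows up to 3 counts, which is 0.0501 CPM in the deepest library and 0.0983 CPM in the shallowest; this limit covers counting error only. KIT is also a marker of mast cells. Of 7 mast cell and basophil markers, CPA3 and CLC had 0 counts in every library and MS4A2 had 0.132 to 0.568 CPM. The list summed to 0.410 to 0.606 CPM in dTAG FL-NPM1c, 0.596 to 1.04 in dTAG C-body null, 0.497 to 0.668 in dTAG mCherry and 0.159 to 0.248 in NTC DMSO.

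CSF1R (ENSG00000182578, chromosome 5, 150053291 to 150113372, minus strand), the M-CSF receptor of the monocyte lineage, had 21.6, 20.03 and 18.9 CPM in dTAG FL-NPM1c. It had 26.2, 27.5 and 30.7 CPM in dTAG C-body null, 22.7, 26.1 and 18.6 in dTAG mCherry, and 1.51, 1.5002 and 1.85 in NTC DMSO. The NTC DMSO libraries held 60 to 70 counts of CSF1R each and lay far below the 9 other libraries, which held 557 to 1287. CSF1R rose by 3.80 ± 0.15 on the log2 scale in dTAG mCherry over NTC DMSO, which is 13.9-fold (edgeR adjusted p = 3.1e-11), and by 3.67 to 3.92 with each library left out in turn. It was the largest change among the members in each of the 3 comparisons with NTC DMSO, at 12.4-fold in dTAG FL-NPM1c (3.64 ± 0.15, edgeR adjusted p = 6.7e-11) and 17.4-fold in dTAG C-body null (4.12 ± 0.15, edgeR adjusted p = 8.5e-12).

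For CSF1R, dTAG FL-NPM1c was called different from dTAG C-body null but not from dTAG mCherry. The difference between dTAG FL-NPM1c and dTAG mCherry was -0.16 ± 0.12 on the log2 scale (edgeR adjusted p = 0.35), and the 3 libraries of each group overlapped. CSF1R was lower in dTAG FL-NPM1c than in dTAG C-body null by -0.48 ± 0.11 (edgeR adjusted p = 0.012), with no overlap between the groups. That call was lost without dTAG FL-NPM1c library 2 (-0.48, adjusted p = 0.054) or library 3 (-0.43, adjusted p = 0.057). In dTAG C-body null over dTAG mCherry the difference was 0.32 ± 0.12 (edgeR adjusted p = 0.30), and 0.44 without dTAG mCherry library 2 (adjusted p = 0.033). The processed pseudogene RPL7P1 lies inside CSF1R on the opposite strand and had 4983 to 9574 counts per library. In GENCODE 29 it shares 0 exon bases with CSF1R; the annotation used for counting may differ.

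CSF3R (ENSG00000119535, chromosome 1, 36466043 to 36483278, minus strand), the G-CSF receptor, had 34.6, 35.3 and 34.2 CPM in dTAG FL-NPM1c. It had 74.9, 78.6 and 87.3 CPM in dTAG C-body null, 69.6, 80.7 and 64.9 in dTAG mCherry, and 26.4, 25.5 and 33.5 in NTC DMSO. The libraries fell into a high pair of groups, C-body null and mCherry, and a low pair, FL-NPM1c and NTC DMSO, with no overlap between the pairs. CSF3R rose by 1.34 ± 0.11 on the log2 scale in dTAG mCherry over NTC DMSO, 2.52-fold (edgeR adjusted p = 1.6e-07). It was lower in dTAG FL-NPM1c than in dTAG mCherry by -1.05 ± 0.11 (edgeR adjusted p = 9.9e-06), and lower than in dTAG C-body null by -1.21 ± 0.11 (edgeR adjusted p = 1.6e-06). C-body null minus mCherry was 0.16 ± 0.11 (edgeR adjusted p = 0.54). Against NTC DMSO, dTAG FL-NPM1c differed by 0.29 ± 0.11 (edgeR adjusted p = 0.058), and this passed the threshold without NTC DMSO library 3 (0.42, adjusted p = 0.0046).

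CSF2RA (ENSG00000198223, chromosome X, 1268800 to 1310381, plus strand) encodes the GM-CSF receptor alpha chain. It had the lowest level per merged exon length of the receptors detected. By the length of the longest transcript, CSF2RA stood above IL3RA in dTAG C-body null. It had 1.46, 1.03 and 1.56 CPM in dTAG FL-NPM1c. Its values were 3.57, 4.605 and 4.08 in dTAG C-body null, 4.17, 3.65 and 3.78 in dTAG mCherry, and 0.397, 0.975 and 0.793 in NTC DMSO. As for CSF3R, the C-body null and mCherry libraries were all above those of FL-NPM1c, and the FL-NPM1c libraries were all above those of NTC DMSO. CSF2RA rose by 2.42 ± 0.23 on the log2 scale in dTAG mCherry over NTC DMSO, 5.34-fold (edgeR adjusted p = 1.1e-06). It was lower in dTAG FL-NPM1c than in dTAG mCherry by -1.50 ± 0.21 (edgeR adjusted p = 0.00017) and than in dTAG C-body null by -1.58 ± 0.21 (edgeR adjusted p = 8.0e-05). The group of NTC DMSO rests on 16 to 39 counts per library. The rise in dTAG FL-NPM1c over NTC DMSO, 0.92 ± 0.25 (edgeR adjusted p = 0.013), was lost without dTAG FL-NPM1c library 1 (0.84, adjusted p = 0.051) or 3 (0.79, adjusted p = 0.055) and without NTC DMSO library 1 (0.62, adjusted p = 0.075).

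CSF2RA and IL3RA lie in the pseudoautosomal region shared by chromosomes X and Y, and the counts list each under an X and a Y identifier. Of 15 genes of this region with a pair of identifiers, 14 had equal counts on both in all 12 libraries, CSF2RA and IL3RA among them. Each was used here once, under its X identifier, and its reads cannot be assigned to either copy. The region did not move as a block. Of its 12 tested genes, PLCXD1 fell in dTAG mCherry against NTC DMSO (-0.49 ± 0.12, edgeR adjusted p = 0.0070), CSF2RA was the 1 that rose, and the median was -0.10 on the log2 scale.

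IL3RA (ENSG00000185291, chromosome X, 1336616 to 1382689, plus strand), the interleukin 3 receptor alpha chain known as CD123 and often high on leukaemic progenitors, was near 3 CPM in all groups. It had 3.68, 3.33 and 2.85 CPM in dTAG FL-NPM1c. Its values were 2.61, 2.76 and 2.31 in dTAG C-body null, 3.56, 3.17 and 2.91 in dTAG mCherry, and 2.46, 2.48 and 3.14 in NTC DMSO. The C-body null libraries lay below those of FL-NPM1c and mCherry, by differences that did not pass the test. These were 0.36 ± 0.15 on the log2 scale for FL-NPM1c minus C-body null (edgeR adjusted p = 0.15) and -0.33 ± 0.15 for C-body null minus mCherry (edgeR adjusted p = 0.41). The difference between dTAG mCherry and NTC DMSO was 0.26 ± 0.15 (edgeR adjusted p = 0.24).

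CSF2RB (ENSG00000100368, chromosome 22, 36913628 to 36940449, plus strand), the signalling chain shared by the GM-CSF, interleukin 3 and interleukin 5 receptors, had 12.0, 13.5 and 14.4 CPM in dTAG FL-NPM1c. It had 16.6, 16.1 and 15.6 CPM in dTAG C-body null, 14.98, 19.1 and 13.6 in dTAG mCherry, and 13.9, 12.5 and 14.2 in NTC DMSO. No 2 group means differed by more than 0.27 on the log2 scale, and the largest of these differences was FL-NPM1c minus C-body null (-0.27 ± 0.12, edgeR adjusted p = 0.16). In dTAG mCherry minus NTC DMSO the value was 0.24 ± 0.12 (edgeR adjusted p = 0.16), and it passed the threshold without dTAG mCherry library 3 (0.34, adjusted p = 0.042). The 3 chains of the GM-CSF and interleukin 3 receptors thus gave unlike values in that comparison, 2.42 for CSF2RA, 0.26 for IL3RA and 0.24 for CSF2RB.

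IL6R (ENSG00000160712, chromosome 1, 154405193 to 154469450, plus strand), the ligand-binding interleukin 6 receptor, had the highest level per length of the members. It had 206, 205 and 222 CPM in dTAG FL-NPM1c. Its values were 324, 346 and 307 in dTAG C-body null, 257, 279 and 257 in dTAG mCherry, and 199, 209 and 213 in NTC DMSO. The C-body null libraries were highest, the mCherry libraries next, and FL-NPM1c and NTC DMSO overlapped below them. IL6R rose by 0.35 ± 0.07 on the log2 scale in dTAG mCherry over NTC DMSO, 1.28-fold (edgeR adjusted p = 0.0018), and by 0.65 ± 0.07 in dTAG C-body null (edgeR adjusted p = 3.3e-06). It was lower in dTAG FL-NPM1c than in dTAG mCherry by -0.32 ± 0.07 (edgeR adjusted p = 0.0072) and than in dTAG C-body null by -0.62 ± 0.07 (edgeR adjusted p = 2.3e-05). C-body null minus mCherry was 0.30 ± 0.07 (edgeR adjusted p = 0.077). That difference was called by DESeq2 (0.32, adjusted p = 0.0021), without the filter on low counts (0.32, edgeR adjusted p = 0.033) and without dTAG mCherry library 2 (0.34, edgeR adjusted p = 0.017). In dTAG FL-NPM1c minus NTC DMSO the value was 0.03 ± 0.07 (edgeR adjusted p = 0.80). The antisense gene IL6R-AS1 had 17 to 38 counts per library and shares 0 exon bases with IL6R.

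**Figure D2:**
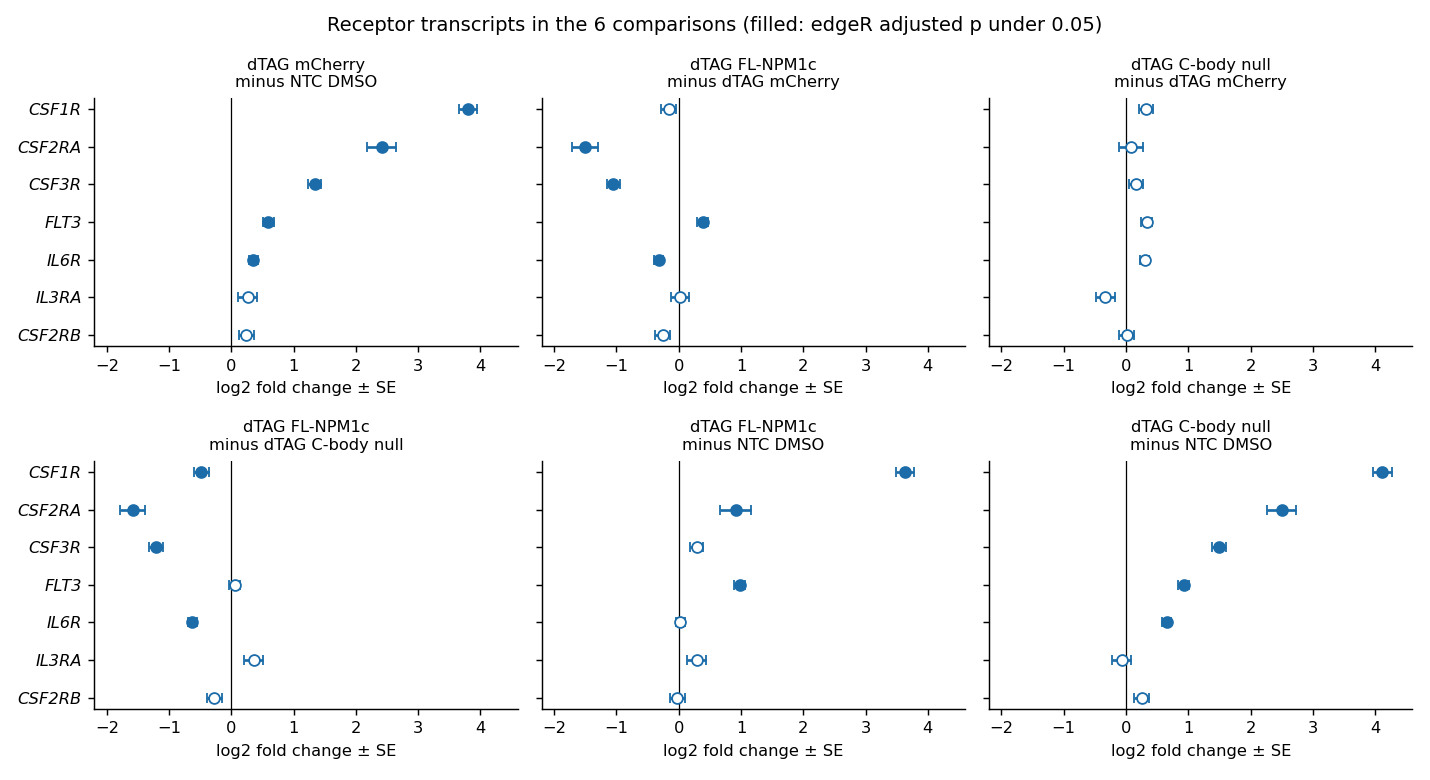
Log2 fold change with SE of the 7 tested receptors in each of the 6 comparisons (filled points, edgeR adjusted p under 0.05). CSF1R stands between 3.64 and 4.12 in the 3 comparisons with NTC DMSO. CSF3R, CSF2RA and IL6R lie below 0 and are called in both comparisons of FL-NPM1c with another dTAG-13 group. CSF1R and CSF2RB also lie below 0 in both, where CSF1R is called against C-body null only and CSF2RB in neither.

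Over the 7 tested members the median log2 fold change was 0.60 in dTAG mCherry minus NTC DMSO, beside -0.0016 over all genes tested. It was -0.26 in dTAG FL-NPM1c minus dTAG mCherry (-0.0019 over all genes), 0.16 in dTAG C-body null minus dTAG mCherry (-0.01 over all genes) and -0.48 in dTAG FL-NPM1c minus dTAG C-body null (0.01 over all genes). In dTAG mCherry and NTC DMSO the libraries did not overlap for 5 of the 7 members, as for 32.1% of all genes tested. That number was 4 members in dTAG FL-NPM1c and dTAG mCherry (32.4% of all genes), 4 in dTAG C-body null and dTAG mCherry (15.0%), and 6 in dTAG FL-NPM1c and dTAG C-body null (35.1%). With NTC DMSO it was 4 for dTAG FL-NPM1c (43.5%) and 6 for dTAG C-body null (40.4%).

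Levels of different receptors were compared per exon length and library size (RPKM, from the merged exons of GENCODE 29). In dTAG FL-NPM1c the order was IL6R at 32.7 RPKM, FLT3 at 10.4, CSF3R at 4.12, CSF1R at 3.91, CSF2RB at 2.66, IL3RA at 1.92 and CSF2RA at 0.352. There CSF3R and CSF1R overlapped between libraries, and the other neighbours did not. In dTAG C-body null IL6R stood at 50.5 RPKM, FLT3 at 10.0 and CSF3R at 9.52, of which FLT3 and CSF3R overlapped, followed by CSF1R at 5.46, CSF2RB at 3.22, IL3RA at 1.497 and CSF2RA at 1.07. In dTAG mCherry IL6R stood at 40.9 RPKM, CSF3R at 8.51, FLT3 at 7.95, CSF1R at 4.37, CSF2RB at 3.18, IL3RA at 1.88 and CSF2RA at 1.01. Here CSF3R overlapped with FLT3, and CSF1R with CSF2RB. In NTC DMSO no neighbours overlapped, and the order was IL6R at 32.1 RPKM, FLT3 at 5.25, CSF3R at 3.38, CSF2RB at 2.71, IL3RA at 1.57, CSF1R at 0.315 and CSF2RA at 0.188. CSF1R thus stood above CSF2RB and IL3RA in mean level per length in the 3 dTAG-13 groups and below both in NTC DMSO. By the length of the longest transcript, CSF3R stood above FLT3 and CSF2RA above IL3RA in dTAG C-body null, and the order in the other 3 groups was unchanged.

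**Figure D3:**
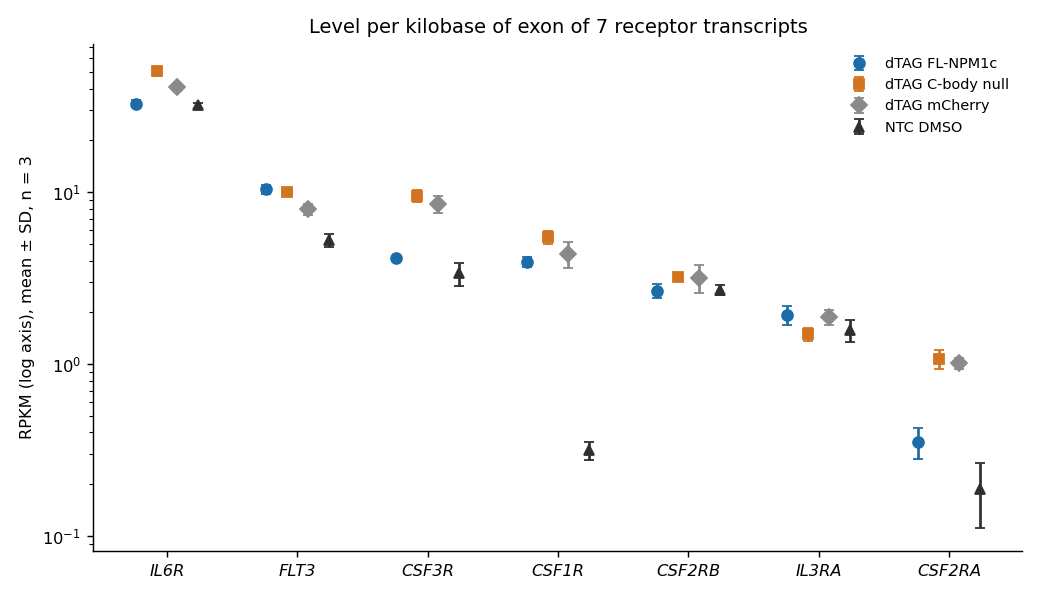
Mean level per kilobase of exon (RPKM, log axis) with SD over 3 libraries for the 7 receptors with counts, in the 4 groups. IL6R is highest in every group, at 32.1 to 50.5 RPKM, and the gap between NTC DMSO and the other groups is widest for CSF1R.

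The ligands of these receptors were mostly at or near 0. Of 9 ligand genes, CSF3 (G-CSF), CSF2 (GM-CSF) and IL3 had 0 counts in all 12 libraries, and KITLG, IL34, IL6 and IL5 had 1, 2, 2 and 4 counts in total. CSF1, which encodes M-CSF, had 1.98, 1.84 and 1.84 CPM in dTAG FL-NPM1c. It had 0.330, 0.430 and 0.286 CPM in dTAG C-body null, 0.746, 0.729 and 0.334 in dTAG mCherry, and 0.744, 0.775 and 1.00 in NTC DMSO. The FL-NPM1c libraries lay above the rest and the C-body null libraries, of 12 to 17 counts, lay below NTC DMSO. CSF1 was higher in dTAG FL-NPM1c than in dTAG mCherry by 1.60 ± 0.23 on the log2 scale (edgeR adjusted p = 0.00028), than in dTAG C-body null by 2.43 ± 0.25 (edgeR adjusted p = 8.7e-06) and than in NTC DMSO by 1.17 ± 0.22 (edgeR adjusted p = 0.0011). In dTAG C-body null it was lower than in NTC DMSO by -1.26 ± 0.29 (edgeR adjusted p = 0.0033), and dTAG mCherry minus NTC DMSO was -0.43 ± 0.26 (edgeR adjusted p = 0.26). These CSF1 calls held under all alternatives run.

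FLT3LG, which encodes FLT3 ligand, was also highest in dTAG FL-NPM1c, at 2.29 ± 0.247 CPM (SD, n = 3), with 1.23 ± 0.214 in dTAG C-body null, 1.35 ± 0.0835 in dTAG mCherry and 1.55 ± 0.435 in NTC DMSO. It was higher in dTAG FL-NPM1c than in dTAG mCherry by 0.76 ± 0.20 on the log2 scale (edgeR adjusted p = 0.018), a call that was lost without dTAG FL-NPM1c library 1 (0.69, adjusted p = 0.072) or 3 (0.72, adjusted p = 0.052) and without dTAG mCherry library 1 (0.70, adjusted p = 0.066). It was higher than in dTAG C-body null by 0.89 ± 0.20 (edgeR adjusted p = 0.0080), and without dTAG C-body null library 2 by 0.80 (adjusted p = 0.051). Over NTC DMSO it was higher by 0.57 ± 0.19 (edgeR adjusted p = 0.039), a call lost without dTAG FL-NPM1c library 1 (0.49, adjusted p = 0.13) or 3 (0.52, adjusted p = 0.10), without NTC DMSO library 2 (0.32, adjusted p = 0.24) and with DESeq2 (0.55, adjusted p = 0.052).

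**Figure D4:**
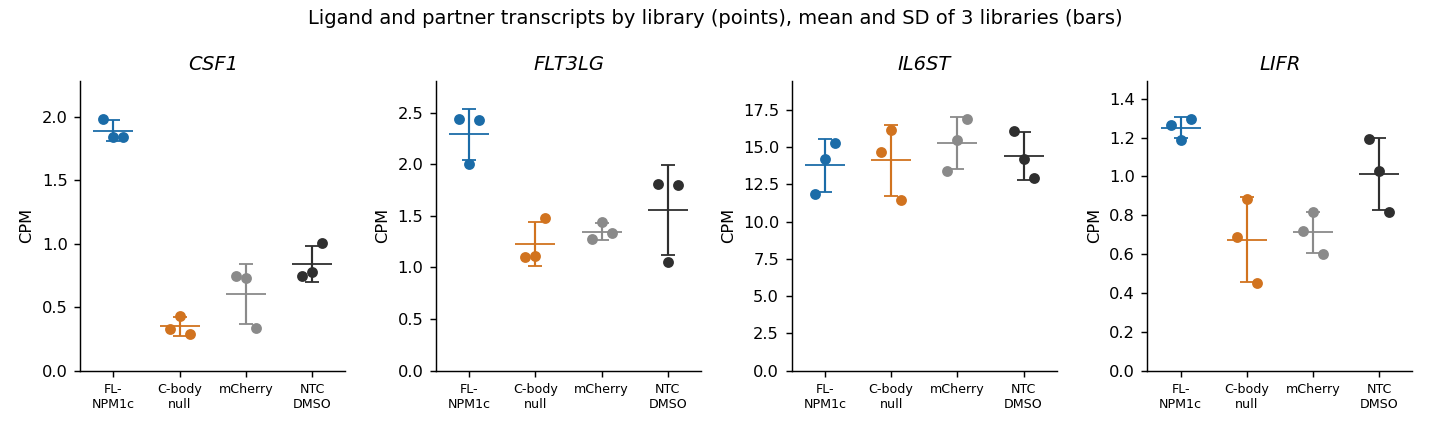
Levels in CPM (linear axis from 0) of the ligand genes CSF1 and FLT3LG and of the receptor partners IL6ST and LIFR in the 3 libraries of each group (points), with the mean and SD (bars). CSF1 lies at 1.84 to 1.98 CPM in dTAG FL-NPM1c and at 1.00 CPM or lower in the other libraries, and IL6ST overlaps between all groups.

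IL6ST, the signal-transducing partner of IL6R, was at 13.8 ± 1.77 CPM in dTAG FL-NPM1c, 14.1 ± 2.39 in dTAG C-body null, 15.3 ± 1.75 in dTAG mCherry and 14.4 ± 1.60 in NTC DMSO, and was called in none of the 6 comparisons. LIFR, which pairs with IL6ST for other cytokines, was at 1.25 ± 0.0547 CPM in dTAG FL-NPM1c, 0.675 ± 0.217 in dTAG C-body null, 0.712 ± 0.107 in dTAG mCherry and 1.01 ± 0.186 in NTC DMSO. Its difference between dTAG FL-NPM1c and dTAG mCherry was 0.79 ± 0.23 on the log2 scale (edgeR adjusted p = 0.029). The adjusted p rose to between 0.066 and 0.10 without any 1 of dTAG FL-NPM1c libraries 1, 2 and 3 or dTAG mCherry libraries 1 and 3.

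Of the 8 tested JAK and STAT genes, 2 were higher and 0 lower in dTAG mCherry against NTC DMSO. In that comparison 12.9% of all tested genes were called higher and 9.69% lower. JAK2, the kinase bound by CSF2RB and CSF3R, rose by 0.68 ± 0.11 on the log2 scale (edgeR adjusted p = 0.00036). The other was TYK2 (0.40 ± 0.13, edgeR adjusted p = 0.033), at 0.24 without dTAG mCherry library 2 (adjusted p = 0.14), and also lost without dTAG mCherry library 1 (adjusted p = 0.060) and without NTC DMSO library 1 (adjusted p = 0.10) or 2 (adjusted p = 0.11). It was lost as well with the replicate block (0.40, adjusted p = 0.061) and with the 2 groups alone (0.41, adjusted p = 0.069). Of 24 tested genes of proximal receptor signalling, 9 were higher and 0 lower in dTAG mCherry against NTC DMSO, with a median of 0.17. In dTAG FL-NPM1c against dTAG C-body null 0 of the 24 were higher and 7 lower, with a median of -0.13. There 4.82% of all tested genes were higher and 4.86% lower. The Src family kinase FGR rose by 2.38 ± 0.16 in dTAG mCherry over NTC DMSO (edgeR adjusted p = 2.2e-08) and was lower in dTAG FL-NPM1c than in dTAG C-body null (-1.17 ± 0.14, edgeR adjusted p = 4.4e-05).

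Target and feedback genes of receptor signalling did not move in one direction. In dTAG mCherry against NTC DMSO, 8 of 22 such genes were higher and 4 lower, with a median of 0.05, beside 12.9% higher and 9.69% lower of all tested genes. The repressor BCL6 rose by 1.44 ± 0.11 on the log2 scale (edgeR adjusted p = 5.7e-08) and the ERK phosphatase DUSP6 by 1.21 ± 0.08 (edgeR adjusted p = 2.8e-08). The kinase gene PIM1, a STAT5 target, fell by 0.62 ± 0.15 (edgeR adjusted p = 0.0071). SOCS2, a feedback inhibitor that STAT5 induces, was lower in dTAG mCherry than in NTC DMSO by -1.34 ± 0.35 (edgeR adjusted p = 0.010). That call was lost without dTAG mCherry library 2 (-1.10, adjusted p = 0.054). SOCS2 was higher in dTAG FL-NPM1c than in dTAG mCherry by 1.54 ± 0.33 (edgeR adjusted p = 0.0062), at 0.531 CPM in dTAG FL-NPM1c and 0.183 CPM in dTAG mCherry.

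Other cytokine receptors were counted for comparison. Against NTC DMSO, dTAG mCherry had 14 higher and 3 lower of 26 with enough counts to test, with a median of 0.53. Of all tested genes 12.9% were higher and 9.69% lower there. In dTAG FL-NPM1c against dTAG mCherry 3 of the 26 were higher and 11 lower, with a median of -0.20, beside 7.58% higher and 7.95% lower of all tested genes. The interleukin 10 receptor chain IL10RA rose by 2.75 ± 0.16 on the log2 scale in dTAG mCherry over NTC DMSO (edgeR adjusted p = 2.3e-09), and the interleukin 18 receptor chain IL18RAP fell by 1.64 ± 0.11 (edgeR adjusted p = 2.5e-08). Of 13 tested receptor kinases outside the members, 1 was higher and 4 lower in the same comparison. The 1 that rose was MERTK, a receptor for apoptotic cells on macrophages (2.53 ± 0.13, edgeR adjusted p = 5.4e-10), and the collagen receptor DDR2 fell by 1.53 ± 0.12 (edgeR adjusted p = 9.4e-08).

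Monocyte and macrophage markers were higher in dTAG mCherry than in NTC DMSO, as were 5 of the receptors. Of 12 such genes, 11 were tested, and all 11 were higher in dTAG mCherry than in NTC DMSO, with 0 of the 12 at 0 counts throughout. Their summed level was 769 to 919.9 CPM in dTAG FL-NPM1c, 1132 to 1173 in dTAG C-body null, 1086 to 1154 in dTAG mCherry and 220.3 to 235 in NTC DMSO. In dTAG FL-NPM1c against dTAG mCherry 4 of the 11 were lower and 0 higher, among them the integrin ITGAM (-2.02 ± 0.14, edgeR adjusted p = 2.3e-07). Of all tested genes 7.95% were lower and 7.58% higher there. In the monocyte and macrophage sum the groups stood in the order of the mean levels of CSF1R, CSF3R, CSF2RA and IL6R, though C-body null and mCherry overlapped. The part of this sum in the receptor values was not tested. Epithelial and fibroblast markers summed to 629 to 719 CPM in dTAG FL-NPM1c, 455 to 553 in dTAG C-body null, 449 to 559 in dTAG mCherry and 59.99 to 67.1 in NTC DMSO, with EPCAM at 0 in every library, and their part was not tested either. Nearly all of that sum was FN1 (fibronectin), at 685 ± 49.7 CPM in dTAG FL-NPM1c, 509.9 ± 50.4 in dTAG C-body null, 516 ± 59.1 in dTAG mCherry and 62.6 ± 3.62 in NTC DMSO. The other gene of the list that was tested, COL1A2, was lower in dTAG mCherry, at 0.0784 CPM, than in NTC DMSO, at 0.54 CPM (log2 difference -2.72 ± 0.45, edgeR adjusted p = 0.00035). In bulk RNA, more cells of a type and more RNA per cell cannot be told apart. Of 21 tested lineage transcription factors, 6 were higher and 5 lower in dTAG mCherry against NTC DMSO, beside 12.9% higher and 9.69% lower of all tested genes. MEIS1, a factor of progenitors, fell by 0.81 ± 0.09 on the log2 scale (edgeR adjusted p = 3.9e-06).

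Across the 12 libraries, pairs of receptors ran together to different degrees (Pearson r of log2 CPM with a prior count of 2, given as a description because the libraries share 4 groups). CSF3R ran with CSF2RA at 0.94 and with IL6R at 0.92, and CSF2RA with IL6R at 0.86. FLT3 ran with CSF1R at 0.89 and with CSF3R at 0.46. IL3RA stood between -0.29 and 0.29 with every other member. Among 16329 named genes with at least 1 CPM on average, those most like CSF1R were CDKN1A at 0.997, DDIT4 at 0.996 and NRP1 at 0.995. Most like CSF3R were NLRP12 and LST1 at 0.99, most like CSF2RA were TREM1 at 0.98 and ATP6V0A1 at 0.97, and most like IL6R were TRIM14 and HDAC4 at 0.97. Most like FLT3 were MTURN at 0.99 and PAK1 at 0.97. CSF2RB and IL3RA had weaker partners, ITGA7 at 0.93 and ZNF778-DT at 0.91.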

How the data were processed

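Per the labels' protocols, the 12 libraries were made from total RNA with a kit that keeps strand. Raw counts per Ensembl gene, as deposited by the authors, were the starting point. Per the submitters' processing notes, STAR, featureCounts, DESeq2 and hg38 were used (no versions named). The sources used here do not give the annotation release, the strand setting or the treatment of multi-mapped reads. Of 78936 lines, 6 broken ones (2 genes) were left out. Columns were matched to samples by library number, and groups followed the titles.

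Counts were tested with edgeR 4.0.16 in R 4.3.3: filterByExpr by group left 24064 genes, with TMM factors (0.975 to 1.02) and 1 robust quasi-likelihood fit of 4 groups of 3. P-values were adjusted by Benjamini-Hochberg over all tested genes, and SE is the absolute log2 fold change over the square root of F. CPM and RPKM were computed here from the deposited counts. Coordinates and exon lengths are from GENCODE 29. Symbols came from a gene name table (42177 IDs) and GENCODE (15568); 21185 IDs had none. Library totals ran from 30519165 to 59925564 counts, and the variation among libraries limits precision as well. The test was also run on counts simulated from the same model and spread, which cannot assess the assumptions of the model. Start regions are from RefSeq. Alternatives were DESeq2 1.42.0, RLE factors, other filters on low counts, a block for the replicate number, 2 groups alone, and leaving out each library.

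The members, the 21 lists and the alternatives were chosen with earlier results of these data known. From lists, up to 3 genes a direction in a comparison could be named, by size of the change among called genes; all ligands could be, and likeness is the highest Pearson r. The results of the remaining marker lists were as follows, in a comparison where 12.9% of all tested genes were higher and 9.69% lower. In dTAG mCherry against NTC DMSO, granulocyte markers had 2 higher of 6 tested, stem and progenitor markers 1 lower of 1, B and plasma cell markers 1 lower of 2, T and NK cell markers and erythroid and megakaryocyte markers 0 of 1 each by edgeR, shedding and trafficking genes 2 higher of 11, myeloid identity genes 5 higher of 8, epithelial and fibroblast markers 1 higher and 1 lower of 2, and mast cell and basophil markers 1 higher of 1.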

Additional observations from a re-analysis of the deposited data

How the results depend on the processing

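The receptor results kept their side of the threshold in 488 of the repeats run, gained a call in 10 and lost one in 6. Differences that were called reversed in 0 repeats. Some differences near 0 that were not called changed sign. An example is CSF2RB in dTAG C-body null minus dTAG mCherry, at -0.08 to 0.17 with each library left out in turn. The calls that changed are given beside each receptor, except that CSF3R in dTAG FL-NPM1c minus NTC DMSO also passed without a filter on low counts (0.27, edgeR adjusted p = 0.045) and under a stricter filter, 50 counts in 3 libraries or more (0.31, adjusted p = 0.044), and CSF2RB in dTAG FL-NPM1c minus dTAG C-body null passed with the 2 groups alone (-0.27, adjusted p = 0.038); the cause was not tested. In dTAG C-body null minus dTAG mCherry the number of receptors called was 1 without a filter on low counts and 2 with DESeq2, and the number of genes called, 143, was 368 without that filter, 357 with DESeq2, 63 with the 2 groups alone and 86 with the replicate block. With the 2 groups alone, the number of genes called was 3402 in dTAG mCherry minus NTC DMSO (5429 with 4 groups) and 4410 in dTAG FL-NPM1c minus dTAG C-body null (2329 with 4 groups).

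With each library left out in turn, receptors called ranged from 5 to 6 in dTAG mCherry minus NTC DMSO, 3 to 4 in dTAG FL-NPM1c minus dTAG mCherry, 0 to 2 in dTAG C-body null minus dTAG mCherry, 3 to 4 in dTAG FL-NPM1c minus dTAG C-body null, 2 to 4 in dTAG FL-NPM1c minus NTC DMSO, and 5 throughout in dTAG C-body null minus NTC DMSO. Genes called ranged in the same order from 4114 to 5894, 1621 to 6834, 60 to 1399, 1365 to 2148, 4190 to 7807 and 4550 to 7052. The values 6834 and 1399 came without dTAG mCherry library 2. The residuals of 18 same-numbered pairs of libraries correlated at -0.81 to 0.58, and those of 36 other pairs at -0.655 to 0.84. Of 12 libraries, 2 correlated best with their own number. These residuals are taken from means of 3 libraries, so they cannot settle whether the numbers pair the libraries. With the replicate block the receptors called numbered 5, 4, 0, 4, 3 and 5, as without it. Of 250 calls of list genes, 173 held under every alternative and 77 were lost under at least 1; those named were among the 173 unless a value says otherwise. Low counts limit CSF2RA, CSF1 and FLT3LG, and KIT could not be tested.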
